A study of Mus musculus with 33 samples.

Results

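The comparison set 14 days of nicotinamide (NAM) against 1 day of NAM in libraries labelled as spleen, with 5 libraries in each group. Its members were these 10 libraries of the 33 in the series, taken by their labels for treatment time and tissue. The comparison itself was chosen with earlier results of these data known. The mice were tumor-free C57Bl/6 animals, all of which drank water with 0.5% NAM, and the groups differed in the labelled time on NAM. The labels have the NAM replaced every 7 days, whereas the study's methods describe more frequent changes of solutions and bottles. Per the study's methods its mice were female and young to adult, an age range given for all mouse experiments together, and the labels add no age. The labels do not say that each replicate came from its own mouse. The study's methods describe its transcriptomic data as coming from a single experiment on several mice, with each sample measured once, so p-values measure the spread between libraries of that experiment. 10 further libraries carrying the same tissue label, 5 from untreated mice and 5 from mice given NAM for 3 days, shared the fit. Their levels are given beside the members' values. Poly(A)-selected RNA was sequenced as paired reads, and each value below is a normalised read count per gene row, meaning the reads of that row after division by the library's size factor.

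The tissue label was checked against its defining genes and the data went against it. Glycam1, the mucin-like ligand made by high endothelial venules of lymph nodes, stood at 108200 to 163400 normalised read counts in the 14-day libraries and at 117000 to 192200 in the 1-day libraries, while the 13 libraries labelled lymph node held 1.59 to 12.4. Chst4, which encodes a sulfotransferase of the same venules, was at 764.7 to 949.9 and 689.7 to 1258 against 6.12 to 45.2. Spic, the transcription factor of splenic red pulp macrophages, was at 774.3 to 996.8 and 858.3 to 1254 against 6117 to 10490 in the libraries labelled lymph node, and Tlx1, which the spleen needs for its formation, was at 0 to 3.74 and 0 to 2.19 against 351 to 574. The 2 sets of libraries were scaled separately, so these levels are set side by side without a test. The 10 libraries are therefore called labelled spleen throughout. Both groups carried the same label and the same marker pattern.

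NAM is a form of vitamin B3. Cells turn it into NAD through the enzyme NAMPT, and at high levels it inhibits the sirtuins and poly(ADP-ribose) polymerases that consume NAD and release NAM. Lymphoid tissue holds mostly B and T lymphocytes with smaller numbers of macrophages, dendritic cells and stromal cells, and several of its gene programs, such as the interferon-stimulated antiviral genes, the immediate early genes and the clock genes, can change within hours. A contrast of 14 days with 1 day asks which transcripts differ between an early and a late time of continued NAM, and it does not by itself say which of the 2 times lies nearer to untreated mice.

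Of 18243 gene rows with a mean of at least 10 normalised read counts over the 20 libraries, 1940 differed between 14 days and 1 day at an adjusted p under 0.05 (limma, two-sided, Benjamini-Hochberg over all rows), which is 10.6% of the rows tested. Such rows are said to be called, and rose and fell are used of them alone, for higher and lower values at 14 days. 953 rows were higher at 14 days (5.22%) and 987 were lower (5.41%). The median log2 fold change was 0.44 among the rows called higher and −0.40 among those called lower. 139 of the former rose and 52 of the latter fell by more than 2-fold. In 1767 rows (9.69%) the 5 values at 14 days did not overlap the 5 at 1 day, with 807 rows above and 960 below. The totals behind these values were 19880930 to 48338251 reads per library at 14 days and 21848473 to 32066627 at 1 day. In what follows values are listed in the order of replicates 1 to 5, a ± beside a mean is the SD over 5 libraries, and a ± beside a log2 fold change is its standard error. Leaving out 14-day replicate 1 lowered the number of rows called to 1214, and without 14-day replicate 3 or 1-day replicate 4 the rows called higher fell to 605 and 632.

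**Figure D1:**
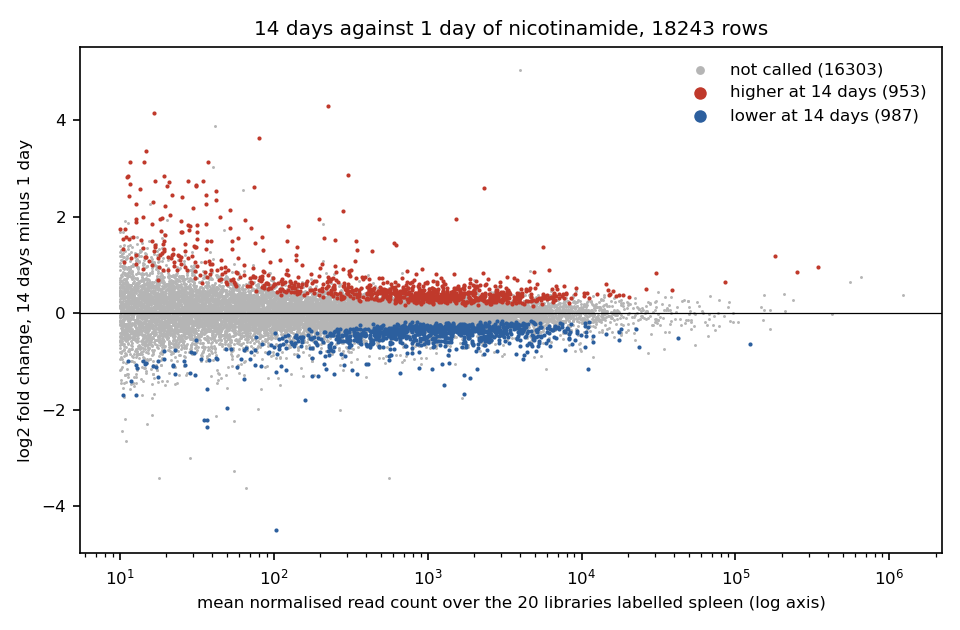
Log2 fold change of 14 days minus 1 day of NAM (vertical axis) against the mean normalised read count over the 20 libraries labelled spleen (horizontal log axis), 1 point per gene row. The 953 rows higher at 14 days are red, the 987 lower rows are blue and the rows not called are grey; the widest red spread lies among rows with low counts.

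Among the fixed gene lists, 141 of 935 distinct rows tested were called, 46 higher and 95 lower at 14 days. The lists with the most members called lower were the nuclear-encoded respiratory chain, the cytoplasmic ribosomal proteins, the proteasome and the type I interferon response, and the list with the most members called higher was that of splicing factors. Each list below is to be read against the shares of 5.22% and 5.41% found among all rows, whose median log2 fold change was −0.01. Several lists were called at no more than the 10.6% of all rows. They include chemokines and clock genes (10.5% each), ATF4 genes (9.52%), sirtuins with poly(ADP-ribose) polymerases (9.52%) and the cell cycle (9.09%). The interferon-gamma list (7.69%), cytokines and NF-kB feedback (7.14%), p53 targets (5%) and endoplasmic reticulum genes (5%) are others. Calls in such lists are given as single genes.

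**Figure D2:**
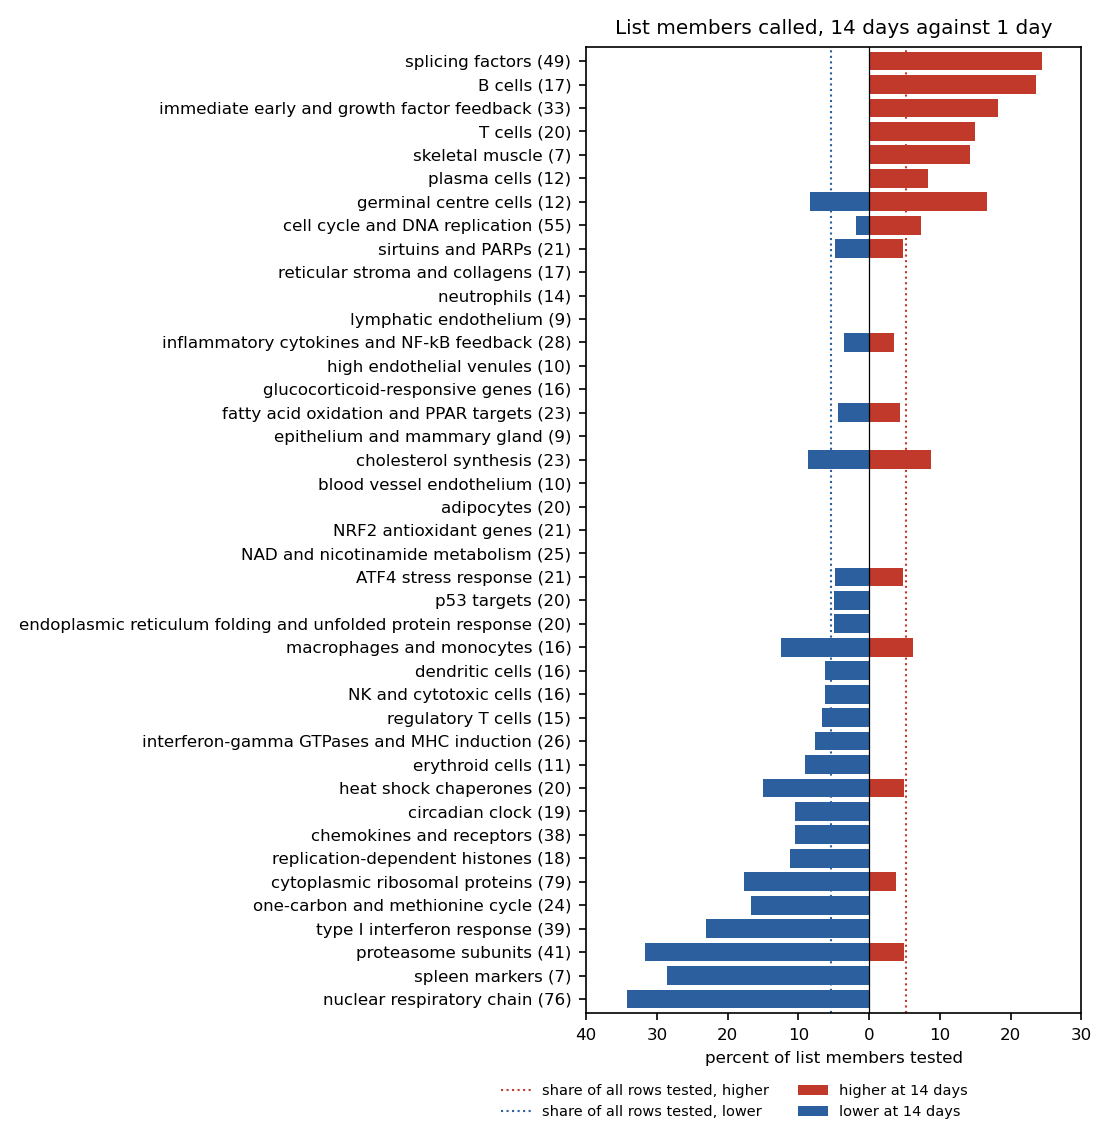
Share of each fixed list's tested members called higher (red bars, to the right) or lower (blue bars, to the left) at 14 days than at 1 day of NAM, in percent, with the number tested in brackets and lists of under 5 tested members left out. Dotted lines mark the shares among all 18243 rows, 5.22% higher and 5.41% lower; the blue bar of the nuclear respiratory chain and the red bar of the splicing factors reach furthest.

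Type I interferon response genes are switched on when interferon receptors activate a complex of transcription factors that binds a short DNA element in their promoters, and many of their products block viral replication. Of 39 members tested, 9 fell at 14 days (Rsad2, Ifi44, Ifit3b, Isg15, Ifit3, Ifit1, Usp18, Xaf1 and Ifit2) and 0 rose, and the median log2 fold change of the list was −0.33. The count of members that fell was between 6 and 14 over the other settings, with the highest count when an adipocyte score was added as a covariate.

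The promoters of the genes that fell are shown because the interferon element is the feature these genes are known to share. The letters GAAA, any 2 bases, GAAA were searched on both strands of the 300 bases that run from 250 before to 50 after each RefSeq start (GRCm38.p6). Of the 9 genes that fell, 8 had a RefSeq entry and 5 of these held the letters, against 10 of 21 listed members with an entry that were not called and 3.44% of all 32851 promoters (1131). The stretches around the matches, 5′ to 3′ on the gene's strand with every match in capitals, came from Isg15 (chr4:156200850-156200921, minus strand), Rsad2 (chr12:26456538-26456597, minus strand), Ifit3 (chr19:34583348-34583441, plus strand) and Ifit1 (chr19:34640760-34640838, plus strand).
Isg15: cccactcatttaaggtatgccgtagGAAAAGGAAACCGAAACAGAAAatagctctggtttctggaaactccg
Rsad2: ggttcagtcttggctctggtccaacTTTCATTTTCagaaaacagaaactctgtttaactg
Ifit3: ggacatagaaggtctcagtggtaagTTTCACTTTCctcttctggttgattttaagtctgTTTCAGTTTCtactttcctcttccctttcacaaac
Ifit1: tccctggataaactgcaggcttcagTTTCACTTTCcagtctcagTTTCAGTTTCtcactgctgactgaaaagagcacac
Isg15 carried 3 overlapping matches, while those of Rsad2, Ifit3 and Ifit1 lay on the opposite strand and so read TTTC, any 2 bases, TTTC. Ifit3b, a near-identical neighbour of Ifit3, held the same 94 bases at chr19:34607744-34607837, so reads of these 2 genes may have been split between them and their values are uncertain. Ifi44, Ifit2 and Xaf1 held no match in this window. A match of letters is a description of the sequence and not evidence of binding.

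Isg15, the ubiquitin-like protein attached to others under interferon, read 1097, 1219, 1253, 1157 and 1434 normalised read counts in the 1-day libraries and 647, 635, 698, 513 and 1071 at 14 days. The groups did not overlap, and the highest 14-day library, replicate 5, lay just under the lowest 1-day library. Its means were 1232 ± 128 and 713 ± 212 (SD, n = 5 each), with log2 fold change −0.83 ± 0.18, adjusted p = 0.00682, and untreated and 3-day libraries stood at 548 ± 129 and 695 ± 142. Rsad2, which encodes the antiviral enzyme viperin, had values of 127, 151, 122, 156 and 164 at 1 day and 71.0, 62.7, 56.1, 49.8 and 106 at 14 days (log2 fold change −1.09 ± 0.25, adjusted p = 0.00998). Its groups did not overlap either, and replicate 5 was again the highest of the 14-day libraries. Ifi44, a further interferon-induced gene, was at 297, 258, 325, 235 and 279 after 1 day and 142, 138, 145, 111 and 207 after 14 days (log2 fold change −0.92 ± 0.17, adjusted p = 0.00347). Ifit3, whose protein belongs to a family that binds viral RNA, read 3448, 4014, 3587, 4378 and 4024 at 1 day and 1989, 1823, 2153, 2019.5 and 3873 at 14 days (log2 fold change −0.77 ± 0.20, adjusted p = 0.0181). Here the groups overlapped through 14-day replicate 5 alone, since the other 14-day libraries reached at most 2153. Over the whole list this library was the highest of the 5 at 14 days for 24 of 39 members, and replicate 4 was the lowest for 25 of 39.

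Genes driven mainly by interferon gamma were listed apart. Of 26 tested members of the list of interferon-gamma GTPases and antigen presentation genes, 2 fell and 0 rose by limma, with a median of −0.12. Igtp, a GTPase that acts on vacuoles holding pathogens, had log2 fold change −0.55 ± 0.15, adjusted p = 0.0229, and its call was lost without 14-day replicates 2 or 4 or 1-day replicate 5 (adjusted p = 0.0543 to 0.0605). Irgm2, a regulator of the same GTPases, had log2 fold change −0.35 ± 0.11, adjusted p = 0.0436, and its call was lost without 14-day replicates 2, 3 or 4 or 1-day replicates 2, 4 or 5 (adjusted p = 0.0533 to 0.114). After the length and GC correction neither was called (adjusted p = 0.0646 for Igtp and 0.119 for Irgm2), and 1 other member, B2m, was higher (0.0402). B2m was not called in the main fit but was higher by edgeR (adjusted p = 0.0379) and DESeq2 (0.00708). It passed the threshold in 10 of 26 other settings. No test of the difference between the interferon lists was made.

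Among chemokine and chemokine receptor genes, 4 of 38 tested fell and 0 rose, although the list's median log2 fold change was 0.07. Ccl8, a monocyte-attracting chemokine made by macrophages, was at 2153, 2481, 3106, 3422 and 3212 in the 1-day libraries and 1539, 715, 1922, 1198 and 1256 in the 14-day libraries. The groups did not overlap, and the log2 fold change was −1.17 ± 0.26 with an adjusted p of 0.00923. The untreated mean of Ccl8 was 1443 ± 306 and the 3-day mean 2748 ± 962. Cxcr6, a receptor of tissue-resident lymphocytes, moved from 2832 ± 443 to 1781 ± 293 (log2 fold change −0.67 ± 0.17, adjusted p = 0.0180). Ccr2, the receptor that brings monocytes into tissue, had log2 fold change −0.38 ± 0.09, adjusted p = 0.0137, and Ccl17, a dendritic cell chemokine, had log2 fold change −0.66 ± 0.19, adjusted p = 0.0303. The call of Ccl17 was lost without 14-day replicates 1, 4 or 5 or 1-day replicates 1 or 3 (adjusted p = 0.0527 to 0.0779). After correction for transcript length and GC content 1 of the 4 calls, that of Ccl8, was kept.

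The respiratory chain is the set of membrane complexes in mitochondria that pass electrons to oxygen and drive the ATP synthase, and most of its subunits are encoded in the nucleus. Of 76 tested members, 26 fell and 0 rose, the median log2 fold change was −0.27, and in 21 members the groups did not overlap, all of them with the 14-day values below. Among all rows tested, 5.26% had their 14-day values wholly below. By complex, 12 of 37 subunits of complex I fell, 2 of 4 of complex II, 2 of 8 of complex III, 4 of 10 of complex IV and 6 of 15 of the ATP synthase, while 0 of 2 cytochrome c genes were called. Between 18 and 36 members fell over the other settings, and 25 fell and 1 rose after the length and GC correction. Cox6a2, a muscle form of a complex IV subunit that is not in the list and overlaps Itgad, rose (log2 fold change 1.01 ± 0.22, adjusted p = 0.00820).

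Ndufc1, an accessory subunit of complex I, was at 1091, 1957, 1151, 1344 and 1263 normalised read counts after 1 day and 438, 632, 561, 683 and 766 after 14 days (log2 fold change −1.14 ± 0.19, adjusted p = 0.00192). Atp5l, a membrane subunit of the ATP synthase, was at 1469, 1785, 1408, 1505 and 1889.8 and 690.3, 630.1, 904, 643 and 759.7 (log2 fold change −1.15 ± 0.19, adjusted p = 0.00192). In both genes every 14-day library lay below every 1-day library, and the means of untreated mice were 533 ± 37.4 for Ndufc1 and 709.7 ± 92.2 for Atp5l. Ndufs4, a subunit of the electron input arm of complex I, had log2 fold change −0.66 ± 0.12, adjusted p = 0.00281, with 1-day values of 2574, 4393, 2762, 2926 and 2904 and 14-day values of 1650.5, 1951, 1962, 1935 and 2185. Cox5a, a subunit of cytochrome c oxidase, moved from 5165 ± 765 to 2863 ± 325 (log2 fold change −0.85 ± 0.15, adjusted p = 0.00285). The list varied together across libraries. 1-day replicate 2 was the highest of its group for 69 of 76 members, 14-day replicate 5 was the highest of its group for 65 of 76 and 14-day replicate 1 was the lowest for 66 of 76. For the 20 adipocyte markers tested, of which 18 had a log2 fold change below 0 and 0 were called, 1-day replicate 2 was likewise the highest of its group for 19 and 14-day replicate 1 the lowest for 19, while 14-day replicate 4 was the highest for 16. With an adipocyte score as a covariate 35 members of the respiratory chain fell and 1 rose.

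Transcripts of the mitochondrial chromosome encode the remaining subunits. The fixed list of mitochondrially encoded transcripts matched no row by symbol, so the 13 tested rows on this chromosome were taken by their mm10 coordinates, a choice made after values had been seen. Of these 13 rows, 8 rose and 0 fell, all 13 log2 fold changes were positive, and their median was 0.85. These rows include parts of overlapping transcripts and so are not independent of each other. The length and GC correction could test only 3 of the 13 rows. Of these 3, 1 was higher with the correction, the row over mt-Nd3 (adjusted p = 0.0180), and 1 without it. The row at chrM:3845-5171, which spans mt-Nd2, a complex I subunit, was at 107382 ± 20524 at 1 day and 245655 ± 47569.9 at 14 days (log2 fold change 1.19 ± 0.25, adjusted p = 0.00587), and that at chrM:9876-11544, over mt-Nd4l and mt-Nd4, had log2 fold change 0.96 ± 0.26, adjusted p = 0.0254. The latter lost its call without 14-day replicates 2, 4 or 5 or 1-day replicates 3 or 5 (adjusted p = 0.0518 to 0.0612) and without the filter on low values. The row over mt-Nd3 at chrM:9459-9804 had log2 fold change 0.83 ± 0.18, adjusted p = 0.00712, and that over mt-Rnr2 and mt-Nd1 at chrM:1094-3841 had log2 fold change 0.85 ± 0.20, adjusted p = 0.0120, a call lost under quantile scaling (adjusted p = 0.0562). The row over mt-Co1, the catalytic core of cytochrome c oxidase, had log2 fold change 0.38 ± 0.23, adjusted p = 0.315 and was not called. The 2 largest changes, log2 fold change 3.63 ± 0.64, adjusted p = 0.00257 inside mt-Rnr1 and log2 fold change 2.86 ± 0.40, adjusted p = 0.000692 inside mt-Nd1, belonged to short rows with means of 12.2 and 54.9 normalised read counts at 1 day.

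Together the mitochondrial rows took 8.44% to 11.9% of normalised reads in the 14-day libraries and 4.85% to 8.21% in the 1-day libraries, with 8.92% to 9.85% in untreated and 5.95% to 14.0% in 3-day libraries. The groups did not overlap, and the exact permutation test of the means gave p = 0.00794 two-sided, the smallest that 5 against 5 allows, with 0.0873 after adjustment over the 11 library values compared. The part this share has in the other results was not tested. Copies of mitochondrial sequence in nuclear chromosomes can share these reads. An unnamed row at chr1:24613965-24614713, which overlaps the pseudogenes Gm10925 and Gm28437 and was chosen after its value was seen, had the largest rise among called rows with a mean of at least 50, with a mean of 15.2 normalised read counts at 1 day and 296 at 14 days (log2 fold change 4.30, adjusted p = 0.00046), and its origin is uncertain.

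**Figure D3:**
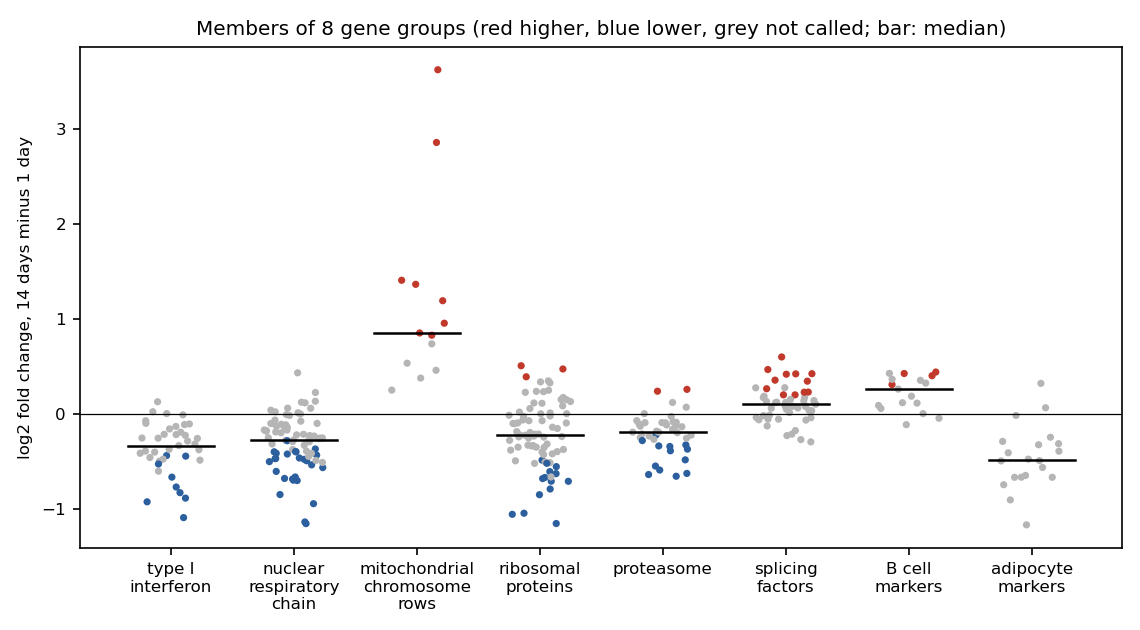
Log2 fold change of 14 days minus 1 day (vertical axis) for the tested members of 8 gene groups (horizontal axis), 1 point per row, with a bar at each group's median. Red points were called higher, blue points lower and grey points were not called; the medians run from −0.48 for adipocyte markers, with 0 members called, to 0.85 for the mitochondrial chromosome rows.

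Ribosomal proteins form the 2 subunits of the ribosome with ribosomal RNA, and 14 of 79 tested members fell and 3 rose, with a median log2 fold change of −0.22. Of the large subunit 6 of 46 fell, and of the small subunit 8 of 31. Leaving out 14-day replicate 4, which was the lowest of its group for 70 of 79 members, left 8 members that fell, the length and GC correction left 8, and an adipocyte covariate raised the count to 41. Many of these genes have near-identical pseudogenes that can take or lend reads, so single values are uncertain. Rpl39 was at 13779.5, 13005, 17117, 14317 and 22391 after 1 day and 7431, 7113, 7559, 5491 and 8264 after 14 days (log2 fold change −1.15 ± 0.25, adjusted p = 0.00770), with no overlap. Rpl24 had log2 fold change −1.04 ± 0.19, adjusted p = 0.00339, Rpl37 had log2 fold change −1.06 ± 0.26, adjusted p = 0.0145 and Rpl9 had log2 fold change −0.79 ± 0.19, adjusted p = 0.0114, all 3 of the large subunit. The 3 that rose were Rpl23 (0.51), Rps26 (0.48) and Rpl27 (0.39) on the log2 scale.

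The proteasome, the barrel-shaped protease that degrades proteins tagged with ubiquitin, had 13 of 41 tested members that fell and 2 that rose, with a median of −0.19. Its 20S core accounted for 6 of 17 and its ATPases for 1 of 6, while 5 of 14 other regulatory subunits and 1 of 4 activators fell. Psmd6, a regulatory subunit, read 2326, 2579, 2539, 2482 and 2559 after 1 day and 1584, 1702, 1663, 1441 and 1716 after 14 days (log2 fold change −0.62 ± 0.10, adjusted p = 0.00192). Psma3, a core subunit, read 1087, 1275, 1139.7, 1171 and 1039 and 767, 658, 657, 708 and 844 (log2 fold change −0.65 ± 0.11, adjusted p = 0.00243). Neither gene overlapped between the groups. The members that rose were Psmd8 (0.24) and Psmb2 (0.26). With the length and GC correction 8 members fell, and 19 with an adipocyte covariate. Within its group 14-day replicate 4 was the lowest for 31 of 41 members and replicate 5 the highest for 29. At 1 day replicate 1 was the lowest for 28 and replicate 2 the highest for 22.

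Splicing factors select exons or form the spliceosome, and 12 of 49 tested members rose and 0 fell, with a median log2 fold change of 0.11. Snrpa, a protein of the U1 particle, was at 1285, 1447, 1513, 1372 and 1535 normalised read counts at 1 day and 2081, 1895, 1749.7, 1999.7 and 1877 at 14 days, with every 14-day library above every 1-day library. Its fold change was 0.43 ± 0.07 on the log2 scale (adjusted p = 0.00249), and the untreated mean was 1957 ± 193. Pnisr, a serine and arginine-rich protein, had log2 fold change 0.47 ± 0.12, adjusted p = 0.0193, and Srrm1, a splicing coactivator, had log2 fold change 0.42 ± 0.10, adjusted p = 0.0120. Others that rose included Srsf5, Srrm2, Hnrnph1, Sf3b2, Tra2b, Rbm25, Prpf8 and Clk2. The list count depended on single libraries, since 5 members rose without 14-day replicate 3, 7 without 14-day replicate 5 and 6 without 1-day replicate 3, and 8 rose with the length and GC correction. Without the filter on low values 6 rose, and 7 rose with 2 groups in the fit. Within its group 14-day replicate 4 was the lowest for 33 of 49 members and replicate 3 the highest for 29. At 1 day replicate 2 was the lowest for 29.

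Immediate early genes, which encode transcription factors made within minutes of a stimulus, and the feedback genes grouped with them were higher at 14 days for 6 of 33 tested members, with 0 lower and a median of 0.16. Klf2, a factor that keeps lymphocytes quiescent and controls their exit from lymph nodes, had the largest rise among these 6. Its values were 4051, 2885, 4480, 3426 and 6352 at 1 day and 8383, 5746, 8250.1, 7198 and 8672 at 14 days, where 1-day replicate 5 overlapped the lowest 14-day library (log2 fold change 0.89 ± 0.18, adjusted p = 0.00478). Nr4a1, an orphan nuclear receptor induced by antigen receptor signals, read 955, 804, 1149, 836 and 1074 and 1398, 1212, 1268, 1221 and 1449.9 without overlap (log2 fold change 0.45 ± 0.09, adjusted p = 0.00441). Egr1 had log2 fold change 0.48 ± 0.13, adjusted p = 0.0210 and lost its call without 14-day replicate 5 or 1-day replicate 2 (adjusted p = 0.0525 to 0.0558) and after the length and GC correction (adjusted p = 0.109). Etv5, a target of growth factor signalling, had log2 fold change 0.57 ± 0.15, adjusted p = 0.0234 and lost its call without 14-day replicates 1 or 2 or 1-day replicate 2 (adjusted p = 0.0509 to 0.0683). Fosb (0.61) and Junb (0.33), both subunits of the AP-1 factor, completed the list. The count was 3 without 14-day replicate 1 or 1-day replicate 2 and 11 without 1-day replicate 5.

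In bulk RNA fewer cells of a type and less RNA per cell cannot be told apart, which holds for each cell type marker below. Of 20 T cell markers, 3 rose and 0 fell, and the count was 1 without any 1 of 14-day replicates 1, 3, 4 or 5 or 1-day replicates 2, 3 or 4. Within its group 1-day replicate 2 was lowest for 20 of the 20 T cell markers and highest for 19 of 20 adipocyte markers, and 14-day replicate 1 was highest for 16 T cell markers and lowest for 19 adipocyte markers. With the adipocyte score as a covariate 4 T cell markers rose and 2 fell. Lef1, a transcription factor of naive T cells, was at 2796, 1809, 3072, 2594 and 3542 after 1 day and 5024, 3688, 4570.4, 3979 and 4468 after 14 days, with no overlap (log2 fold change 0.68 ± 0.15, adjusted p = 0.00936). Bcl11b, which keeps T cell identity, had log2 fold change 0.54 ± 0.17, adjusted p = 0.0444, and Tcf7, a partner of Lef1 in naive and memory cells, had log2 fold change 0.51 ± 0.16, adjusted p = 0.0498. The calls of Bcl11b and Tcf7 were each lost when any 1 of several libraries was left out, with adjusted p values of 0.0657 to 0.112 for Bcl11b and 0.0569 to 0.126 for Tcf7, the highest for both without 14-day replicate 1, and both were lost in edgeR (adjusted p = 0.0655 and 0.0728) and after the length and GC correction (0.135 and 0.0999). Cd3e (log2 fold change 0.10, adjusted p = 0.733), Cd4 (log2 fold change −0.04, adjusted p = 0.901) and Cd8a (log2 fold change −0.13, adjusted p = 0.596), which define the T cell lineages, were not called.

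Of 17 B cell markers, 4 rose and 0 fell, with a median of 0.26. Spib (log2 fold change 0.44 ± 0.12, adjusted p = 0.0193) and Pax5 (log2 fold change 0.43 ± 0.12, adjusted p = 0.0233) are transcription factors of B cells, as is Ebf1 (log2 fold change 0.40 ± 0.11, adjusted p = 0.0282), and Cd72 (log2 fold change 0.31 ± 0.09, adjusted p = 0.0364) is a surface receptor. The count was 0 without 14-day replicate 1, 1 without 14-day replicate 3, 2 without 1-day replicate 2 or 4, 7 without 14-day replicate 4 or 1-day replicate 5, and 1 after the length and GC correction. Within its group 1-day replicate 2 was the lowest for 14 of the 17 and 14-day replicate 1 the highest for 8, and 8 rose with the adipocyte score as a covariate. Ms4a1 (log2 fold change −0.11, adjusted p = 0.614) and Cd79a (log2 fold change 0.43, adjusted p = 0.0599), which define B cells, were not called. The Pax5 value is that of a short row at chr4:44526388-44529160, which may not cover the whole gene.

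Among other leukocytes, 1 of 16 markers of NK and cytotoxic cells fell, namely Klrk1, which encodes the activating receptor NKG2D. It read 418, 355, 436, 432 and 488 at 1 day and 285, 260.2, 323, 246 and 310.3 at 14 days, without overlap (log2 fold change −0.58 ± 0.14, adjusted p = 0.0151). The Klrk1 row spans chr6:129594491-130061533, and whether it also takes reads of neighbouring genes was not checked. Of 16 dendritic cell markers Clec10a, a lectin, fell (log2 fold change −0.52 ± 0.15, adjusted p = 0.0366), and its call was lost without 14-day replicates 1, 2 or 4 or 1-day replicates 2, 3 or 4 (adjusted p = 0.0509 to 0.102). Macrophage and monocyte markers were mixed, with Cd68, a lysosomal protein, higher and Adgre1 and Ccr2 lower among 16 tested. Cd68 had log2 fold change 0.42 ± 0.12, adjusted p = 0.0242 and lost its call without 14-day replicates 1 or 3 or 1-day replicates 2 or 4 (adjusted p = 0.0526 to 0.0602). Adgre1, the gene of the F4/80 antigen, had log2 fold change −0.45 ± 0.14, adjusted p = 0.0375 and lost its call without 14-day replicates 1, 2, 3 or 5 or 1-day replicates 2, 3 or 4 (adjusted p = 0.0565 to 0.0954). Of 15 regulatory T cell markers, Nrp1 alone was called (log2 fold change −0.24 ± 0.07, adjusted p = 0.0254), and its call was lost without 14-day replicates 1 or 3 or 1-day replicate 2 (adjusted p = 0.0588 to 0.0719). Of 12 distinct rows of plasma cell markers Irf4, a factor of plasma cell formation, alone rose (log2 fold change 0.36 ± 0.10, adjusted p = 0.0287), and its call was lost without 14-day replicates 1 or 3 or 1-day replicates 2 or 3 (adjusted p = 0.0570 to 0.0712). None of 14 neutrophil markers was called by limma, with 1 at an unadjusted p under 0.05, 0 called by edgeR and 1 by DESeq2.

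The spleen marker list of 7 tested genes had 2 that fell. Vcam1, an adhesion molecule of stromal and macrophage cells, was at 2762, 2324, 2760.4, 2886 and 3151 normalised read counts after 1 day and 1847, 1674, 1577, 1531 and 1721 after 14 days (log2 fold change −0.73 ± 0.11, adjusted p = 0.000929), and no library overlapped. Untreated and 3-day means of Vcam1 were 1787 ± 221 and 2317 ± 377. Slc40a1, the iron exporter ferroportin, had log2 fold change −0.57 ± 0.16, adjusted p = 0.0297 and lost its call without 14-day replicates 1 or 3 or 1-day replicates 1, 3 or 4 (adjusted p = 0.0519 to 0.0854). The summed level of all 10 listed markers, tested or not, averaged 7009 at 1 day and 5467 at 14 days (exact permutation test, two-sided p = 0.0159, adjusted p = 0.0873 over 11 library values).

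Markers of tissues that can lie around or within the organ were counted too. No member was called among 20 adipocyte markers by limma, edgeR or DESeq2, with 1 at an unadjusted p under 0.05. Their median was −0.48 and their summed level ran from 108060 to 500275 at 14 days and from 209770 to 917034 at 1 day. The groups overlapped. Retn, which encodes the adipocyte hormone resistin, read 6164, 22161, 5469.9, 10604 and 4987 at 1 day and 1444, 5135, 2287, 7262 and 5627 at 14 days (log2 fold change −1.17 ± 0.52, adjusted p = 0.161). The lists of high endothelial venules (10 tested), lymphatic endothelium (9), blood vessel endothelium (10), reticular stroma (17) and epithelium (9) held no called member by limma, edgeR or DESeq2, with 1, 0, 1, 0 and 1 members at an unadjusted p under 0.05. The summed levels of the venule and epithelium lists overlapped between the groups. Of 7 skeletal muscle markers Tnnt3 was called (log2 fold change 1.18 ± 0.27, adjusted p = 0.0106), at low counts of 9.62, 11.4, 16.3, 20.8 and 23.0 and 38.3, 42.3, 50, 40.8 and 18.6. The part of these tissues in the calls of other lists was not tested beyond the adipocyte covariate, with which 3084 rows were called.

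Of 25 tested genes of NAD and NAM metabolism 0 rose and 0 fell by limma, with 2 at an unadjusted p under 0.05 and 0 called by edgeR or DESeq2. Nnmt, the methyltransferase that removes NAM, read 429, 1492, 537, 847 and 563 at 1 day and 176, 563, 169.7, 542 and 689 at 14 days, and the groups overlapped (log2 fold change −0.94 ± 0.42, adjusted p = 0.166, 95% interval −1.83 to −0.05). Nmnat2, which makes NAD from its mononucleotide, was at 9.62, 9.29, 10.6, 15.3 and 18.6 and 24.3, 23.5, 28.8, 14.0 and 14.9 (log2 fold change 0.69 ± 0.25, adjusted p = 0.0860). Of 21 sirtuin and poly(ADP-ribose) polymerase genes, Parp2, a polymerase of DNA repair, rose (log2 fold change 0.27 ± 0.08, adjusted p = 0.0333), with its call lost without 14-day replicates 1 or 3 or 1-day replicates 2, 4 or 5 (adjusted p = 0.0543 to 0.10), and Tnks2, a tankyrase, fell (log2 fold change −0.35 ± 0.06, adjusted p = 0.00311).

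Methyl group metabolism, on which the methylation of NAM draws, had 4 of 24 members that fell and 0 that rose. Mat2a, which makes the methyl donor S-adenosylmethionine, was at 4038, 4025, 3642, 3812 and 3474 after 1 day and 2696, 3182, 2942, 2910.2 and 3195 after 14 days, with no overlap (log2 fold change −0.35 ± 0.07, adjusted p = 0.00645). Mat2b, its regulatory subunit, had log2 fold change −0.40 ± 0.10, adjusted p = 0.0179. Psph, the last enzyme of serine synthesis, had log2 fold change −0.43 ± 0.10, adjusted p = 0.00931, and Ahcyl2, a relative of the enzyme that hydrolyses S-adenosylhomocysteine, had log2 fold change −0.38 ± 0.09, adjusted p = 0.0129. Mat2b lost its call after the length and GC correction (adjusted p = 0.0936) and Ahcyl2 with 2 groups in the fit (adjusted p = 0.0584).

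Of 19 circadian clock genes 2 fell. Cry1, a repressor of the clock, read 1022, 1063, 1089, 1032 and 1087 normalised read counts at 1 day and 781, 716, 669.6, 671 and 751 at 14 days. The groups did not overlap, and the log2 fold change was −0.56 ± 0.09 with an adjusted p of 0.00192. Untreated and 3-day means were 698 ± 64.0 and 912 ± 135. The E-box CACGTG, which the CLOCK and BMAL1 factors bind, occurs in the promoters of 4 of 16 tested clock genes with a RefSeq entry and in 7.15% of all 32851 promoters (2349). It is its own reverse complement, so both strands give 1 match. The stretch around it in Cry1 is shown because this gene had the lowest adjusted p of its list (chr10:85185084-85185139, minus strand, 5′ to 3′, with the E-box in capitals).
Cry1: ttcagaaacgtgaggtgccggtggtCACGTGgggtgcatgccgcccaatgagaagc
Nr1d2, a second clock repressor with no match in the window, had log2 fold change −0.37 ± 0.10, adjusted p = 0.0283 and lost its call without 14-day replicates 1, 3 or 5 or 1-day replicates 2 or 4 (adjusted p = 0.0573 to 0.0791). Per1 (log2 fold change 0.48 ± 0.16, adjusted p = 0.0592) was not called by limma or by edgeR (adjusted p = 0.0782). DESeq2 gave it an adjusted p of 0.043, and it passed the threshold in 7 of 26 other settings.

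**Figure D4:**
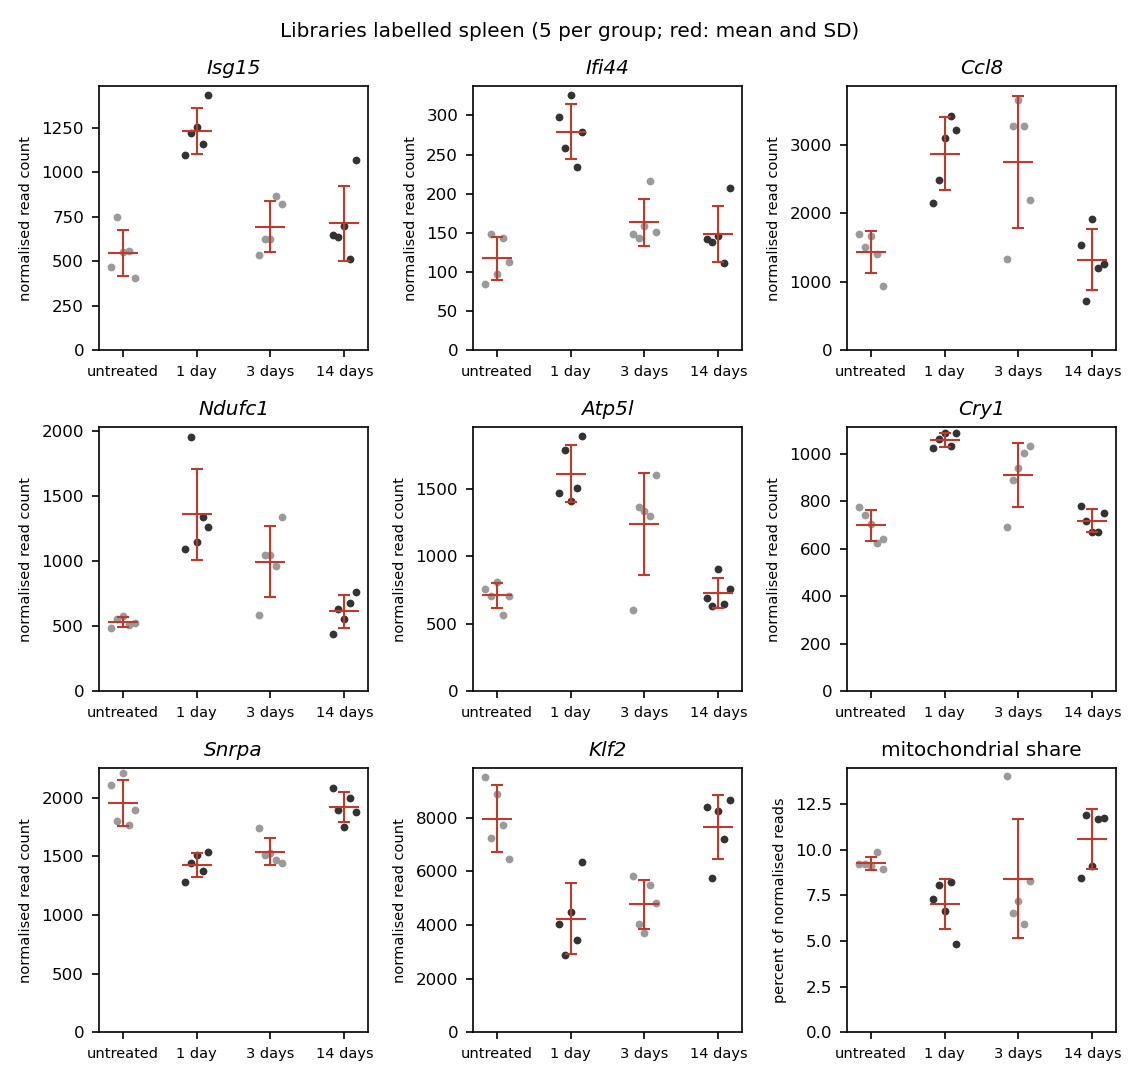
Normalised read count of 8 genes, and the percent of normalised reads on the mitochondrial chromosome, in each library labelled spleen (vertical axes, from 0) by group (horizontal axes, 5 points each). Red bars are means with SD; black points are the 1-day and 14-day libraries compared, which do not overlap except for Klf2.

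Stress programs were counted list by list. Of 20 heat shock chaperone genes Cacybp (log2 fold change −0.39 ± 0.08, adjusted p = 0.00642), Hsph1 (log2 fold change −0.55 ± 0.14, adjusted p = 0.0170) and Hspa4l (log2 fold change −0.36 ± 0.09, adjusted p = 0.0147) fell, and Hsf1, the factor that drives the program, rose (log2 fold change 0.34 ± 0.07, adjusted p = 0.00682). The calls of Cacybp and Hsph1 were lost after the length and GC correction (adjusted p = 0.0621 and 0.0562). Hspa5, the main chaperone of the endoplasmic reticulum, read 11171, 12889, 13196, 11969 and 14602 at 1 day and 9149, 8961, 8676, 8534 and 10398 at 14 days (log2 fold change −0.48 ± 0.11, adjusted p = 0.0125) and was the 1 member called of 20 in its list. Of 21 genes of the ATF4 response Cebpb rose (log2 fold change 0.80 ± 0.24, adjusted p = 0.0356) and Ddit3 fell (log2 fold change −0.55 ± 0.16, adjusted p = 0.0362). The former lost its call without 14-day replicates 2, 4 or 5 or 1-day replicates 1, 3 or 4 (adjusted p = 0.0622 to 0.0918) and the latter without 14-day replicates 1, 3, 4 or 5 or 1-day replicates 3 or 4 (adjusted p = 0.0648 to 0.0873). None of 21 NRF2 antioxidant genes and none of 16 glucocorticoid-responsive genes was called by limma or edgeR, DESeq2 called 1 of each, and 7 and 5 had an unadjusted p under 0.05.

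Sterol genes were split. Srebf2, the master factor of cholesterol synthesis, was at 1363, 1288, 1518, 1415 and 1416 after 1 day and 2439, 1895, 1872, 2356 and 1761 after 14 days, without overlap (log2 fold change 0.55 ± 0.10, adjusted p = 0.00309). Of the 23 tested genes of its list, Hsd17b7 also rose (0.57) and Stard4 (−0.35) and Msmo1 (−0.38) fell, and the calls of all 3 were lost without any 1 of several libraries, with adjusted p values up to 0.128, 0.0852 and 0.118. The length and GC correction also ended the calls of Stard4 (adjusted p = 0.158) and Msmo1 (0.139), and 2 groups in the fit that of Hsd17b7 (0.13). Of 55 cell cycle genes 4 rose and 1 fell. E2f8, a late repressor among the E2F factors, had log2 fold change 0.63 ± 0.15, adjusted p = 0.0126, Cdca3 log2 fold change 0.54 ± 0.12, adjusted p = 0.00998, E2f1 log2 fold change 0.50 ± 0.12, adjusted p = 0.0131 and Aurka, a mitotic kinase, log2 fold change 0.40 ± 0.12, adjusted p = 0.0397, while Rfc4, a subunit of the replication clamp loader, had log2 fold change −0.64 ± 0.14, adjusted p = 0.00852.

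The largest changes by the naming rule included genes outside every list. Gadl1, an amino acid decarboxylase, rose most and read 26.9, 42.3, 58.6, 34.7 and 76.7 normalised read counts at 1 day and 189, 171, 111, 124 and 232 at 14 days (log2 fold change 1.81 ± 0.28, adjusted p = 0.00143, chr9:115909455-116076176). Slc26a10, of an anion transporter family, was at 52.0, 57.8, 37.4, 59.7 and 46.0 and 163, 179, 95.4, 107 and 204 (log2 fold change 1.5 ± 0.26, adjusted p = 0.00248). In both genes every 14-day library lay above every 1-day library, though the counts were low. Cyr61, a matricellular protein also named Ccn1, read 144, 201, 292, 149 and 200.5 at 1 day and 591, 622, 356, 507 and 360 at 14 days (log2 fold change 1.31 ± 0.32, adjusted p = 0.0130, chr3:145646971-145649985). Igfbp2, which binds insulin-like growth factors, read 194, 243, 190.1, 158 and 316 and 455, 502, 451, 375 and 490.3 (log2 fold change 1.08 ± 0.20, adjusted p = 0.00353, chr1:72824480-72852469). Neither gene overlapped between the groups, and untreated means were 389 ± 211 for Cyr61 and 370 ± 64.3 for Igfbp2. Shank1, a scaffold of synapses, had log2 fold change 1.2 ± 0.21, adjusted p = 0.00234, and Pknox2, a homeodomain factor, had log2 fold change 1.06 ± 0.21, adjusted p = 0.00452.

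The other rows of this set were Gm5148 (1.46), whose span also holds the processed pseudogene Rps23-ps1, the long noncoding Gm26510 (1.28), Cox6a2 (1.01), which overlaps Itgad on the other strand, and Mir703 (1.45), a row of 109 bases inside Cfap299. Whether the counting used strand is not given in the sources used here, so overlapping genes cannot be told apart. The call of Mir703 held in 13 of 26 settings. It was lost without 14-day replicates 1, 2, 3, 4 or 5 or 1-day replicates 2 or 3 (adjusted p = 0.0573 to 0.0919), in edgeR (adjusted p = 0.0633) and under 5 other settings.

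On the side of the falls, Rpl22l1, a paralog of the ribosomal protein Rpl22, changed most. It read 2783, 2319.8, 2688, 2687 and 3471 at 1 day and 891, 892, 927, 749.7 and 879 at 14 days (log2 fold change −1.68 ± 0.31, adjusted p = 0.00314, chr3:28805436-28807417), and the lowest 1-day library was far above the highest 14-day library. Untreated and 3-day means of Rpl22l1 were 914 ± 167 and 2354 ± 1003. Aldh1a2, the enzyme that makes retinoic acid from retinal, was at 369.6, 216, 315, 307 and 339.6 and 144, 135, 173, 137 and 98.1 (log2 fold change −1.17 ± 0.20, adjusted p = 0.00249, chr9:71215789-71296243). Its untreated mean was 203 ± 70.3. Gm561 (−1.26), which GENCODE names Smim26, fell without overlap. The falls of Gm15421 (−1.35) and Gm8203 (−1.29) belong to pseudogene rows inside Orc5 and Tmcc1, and reads of parent genes may be counted there. Ccl8, Atp5l, Rpl39, Ndufc1 and Rsad2, given above, completed the 10 largest falls.

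The calls were not spread evenly over transcript length and GC content. Of the 18243 rows, 87.4% had a GENCODE vM21 transcript from which both could be read. Rows called higher had a median length of 3724.5 bases and rows called lower 2927.5, against 3223 for all, and the median GC content was 52.05% and 46.43% against 49.65%. With rows split by GC content into 5 equal bins, 3.20% were called higher and 9.31% lower in the lowest bin, and 7.18% and 1.76% in the highest. Across genes, which are not independent replicates, Spearman's rho with the log2 fold change was 0.107 for length and 0.095 for GC content. With both removed from the values, 992 of 15941 rows were called (536 higher, 456 lower) against 1737 (806 and 931) of the same rows without the correction. After it, 6 of the type I interferon genes, 25 of the respiratory chain, 8 of the ribosomal proteins and 8 of the proteasome were lower, and 8 splicing factors and 3 immediate early genes were higher. Of the 102 named rows called, 31 lost the call. Among those whose loss here is not given beside their values were Clec10a (adjusted p = 0.0608), Ddit3 (0.111), Nrp1 (0.128), Parp2 (0.0545) and Slc40a1 (0.0589). The part of length and GC content in these results was not tested further.

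**Figure D5:**
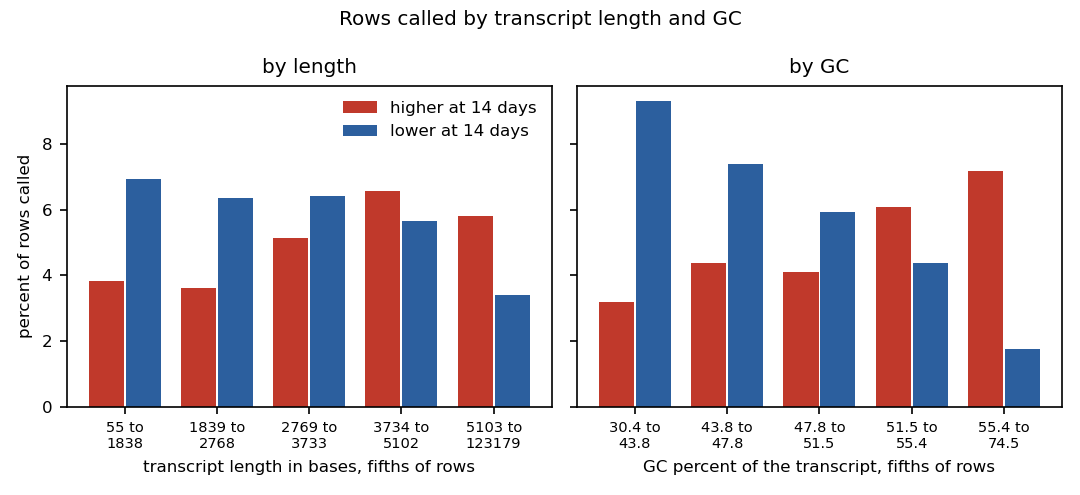
Percent of gene rows called higher (red) or lower (blue) at 14 days than at 1 day, in 5 equal bins of transcript length in bases (left) and of GC percent (right) over 15941 rows. From the lowest to the highest GC bin the share called lower goes from 9.31% to 1.76%, and the share called higher from 3.20% to 7.18%.

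Of 2716 rows without a gene symbol, 186 were higher (6.85%) and 72 lower (2.65%), against 767 (4.94%) and 915 (5.89%) of the rows with a symbol. No test of this difference was made.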

How the data were processed

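The authors deposited 1 table of 56414 gene rows with mm10 coordinates, in which each value is a signal, the normalised read count obtained by dividing gene read counts by a DESeq2 size factor per library. The submitters' processing notes name STAR 2.4.0, SAMtools, Picard, FastQC and DESeq2, and the labels describe paired reads of 75 bases. Counting per gene of the FAST DB annotation is stated for other RNA-seq sets of the study, and the handling of strand is not given in the sources used here. Libraries were grouped by their labels alone. The labels give no batch.

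Log2(value + 1) was fitted with limma 3.58.1 (R 4.3.3, intensity trend) over the 20 libraries labelled spleen, with 4 groups in 1 fit and no covariate. The contrast was 14 days minus 1 day, two-sided, with Benjamini-Hochberg adjustment over the 18243 rows with a mean of at least 10 and a threshold of 0.05. A ± beside a mean is the SD over 5 libraries, a ± beside a log2 fold change its standard error, and fold changes on the log2(value + 1) scale understate those of low rows. Values per library are listed in the order of replicates 1 to 5. Whole reads could be recovered from 100% of the values within 0.01 read, and on these reads edgeR 4.0.16 called 1949 rows and DESeq2 1.42.0 called 2293. Library values were compared by an exact permutation test over 252 splits. The scripts were tested on simulated data.

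Genes were named by a rule: the 10 largest rises and 10 largest falls among called rows with 1 symbol, a mean of at least 50 and no overlap between the groups, the 4 members of each list with the smallest p, and 5 tissue checks. Members of lists named beyond these were chosen after their values were seen. The comparison, the lists and their members were chosen with earlier results of these data known, so lists are described by counts and medians, without a test. Promoters came from RefSeq (GRCm38.p6), and transcript length and GC content from GENCODE vM21, matched by symbol or by at least 90% reciprocal overlap. 557 rows carrying several symbols were tested as 1 row each. Pseudocounts of 0.1 and 5, other filters, TMM and quantile scaling, 2 groups in the fit, library weights, no trend, a replicate block, thinning to equal depth, an adipocyte covariate, a rule of unadjusted p with fold change and leaving out each library were tried, and the length and GC correction was added after seeing the data.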

Additional observations from a re-analysis of the deposited data

Results flagged for a closer look

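Within groups of 5 libraries, 6 of 86 sets of values (6.98%) held 1 library whose gap to its nearest neighbour exceeded 0.71 of the group's range, and chance gives about 1 in 20. Shank1 read 121 in 1-day replicate 1 against 63.5 to 77.8 in the other 1-day libraries. Pknox2 read 140.4 in 14-day replicate 4 against 103 to 114 in the others. Rpl22l1 read 749.7 in 14-day replicate 4 against 879 to 927. The summed level of epithelial and mammary gland markers was 25030 in 1-day replicate 2 against 4761 to 9312, and that of erythroid markers 26510 in the same library against 6706 to 12090. The summed level of neutrophil markers was 13480 in 1-day replicate 3 against 1804 to 5020. Without 1-day replicates 1, 2 and 3 or 14-day replicate 4 in turn, the rises of Shank1 and Pknox2 and the fall of Rpl22l1 were called each time.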

How the results depend on the processing

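Of the 1940 rows called, 568 (251 higher, 317 lower) were also called, in the same direction, in each of 25 other settings, where a row that a setting could not test counted as not called, and 0 changed sign in any setting. Of 102 named rows called, 58 were called in every other setting that gave them a value and 44 lost the call in at least 1, most often (31) after the length and GC correction and then (27) without 14-day replicate 1, with 20 lost without the filter on low values, 17 with 2 groups in the fit and 4 in edgeR. Leaving out 1 library in turn gave 1214 to 1816 rows called, 564 to 975 higher, 650 to 894 lower and 92 to 141 list members. The adipocyte covariate raised the rows called to 3084 (1312 higher, 1772 lower) and the list members called to 245. The length and GC correction, added after seeing the data, left 992 rows (536 higher, 456 lower), partly because it tested 15941 rows, of which 1737 were called uncorrected. Another rule, an unadjusted p of at most 0.05 with at least 1.5-fold, gave 943 rows (569 higher, 374 lower) and 56 list members. The cause of these shifts was not tested further. Quantile scaling moved the share of calls that were higher from 49.1% to 58.6% (1171 higher, 826 lower), and TMM scaling to 45.7%. Under the remaining alternatives (pseudocounts, filters, scalings, 2 groups, weights, no trend, block, edgeR, DESeq2, equal depth) the calls over all rows ran from 1434 to 2544.

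The replicate numbers were taken as names only. The deviations of same-numbered libraries correlated at 0.263, 0.419, 0.193, 0.108 and 0.02, all positive, and 1 of 5 libraries at 14 days correlated best with its own number. These values do not settle whether the numbers pair the libraries. With the number as a replicate block 1966 rows were called (991 higher, 975 lower) with 155 list members, and 5 named calls were lost. The block moved the B cell markers that rose from 4 to 7 and the immediate early list from 6 to 9. The respiratory chain members that fell went from 26 to 33 and those of the proteasome from 13 to 12. Depth limits the rows with low counts. With 5 against 5 the exact test cannot give a p under 0.00794, which over 11 library values adjusts to 0.0873 where 1 value alone is fully separated, as the mitochondrial share was, so the absence of a value past the threshold says nothing about stability.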

Other observations

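Germinal centre genes held 3 calls among 12 tested. The row shared by Mef2b, a factor of germinal centre B cells, and its neighbour Borcs8 rose without overlap between the groups (log2 fold change 0.38 ± 0.06, adjusted p = 0.00223; 0.0552 after the length and GC correction), but the reads of the 2 genes cannot be told apart in it. Basp1 rose as well (log2 fold change 0.46 ± 0.12, adjusted p = 0.0209), with its call lost without 14-day replicates 1 or 3 or 1-day replicate 2 (adjusted p = 0.0510 to 0.0605), and Fas, a death receptor that is also a listed p53 target and the 1 member called of 20 in that list, fell (log2 fold change −0.28 ± 0.09, adjusted p = 0.0486), with its call lost without 14-day replicates 1, 2, 4 or 5 or 1-day replicates 1, 3, 4 or 5 (adjusted p = 0.0602 to 0.114). The length and GC correction ended the calls of Basp1 (adjusted p = 0.0723) and Fas (0.363) too. In the list of inflammatory cytokines and NF-kB feedback, Bcl3, a nuclear partner of NF-kB, rose (log2 fold change 0.44 ± 0.10, adjusted p = 0.00775) with every 14-day library above every 1-day library and lost its call after the length and GC correction (adjusted p = 0.0916), and Il15, the cytokine that sustains NK and memory T cells, fell (log2 fold change −0.44 ± 0.14, adjusted p = 0.0407), with its call lost without 14-day replicates 1, 2, 3 or 5 or 1-day replicates 1, 3, 4 or 5 (adjusted p = 0.0517 to 0.106) and after the length and GC correction (0.123). These were 2 of 28 members tested.

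Of 18 replication-dependent histone genes 2 were lower, Hist1h1c (log2 fold change −0.52 ± 0.13, adjusted p = 0.0172), lost without 14-day replicates 1 or 3 (adjusted p = 0.0522 to 0.0529), and Hist1h2bg (log2 fold change −1.71 ± 0.47, adjusted p = 0.0259), lost without 14-day replicates 1, 3 or 5 or 1-day replicates 4 or 5 (adjusted p = 0.0537 to 0.0709). Most histone transcripts of this class lack the poly(A) tail by which the RNA was selected. In fatty acid oxidation Ppard rose (log2 fold change 0.27 ± 0.08, adjusted p = 0.0290), lost without 14-day replicates 1 or 3 or 1-day replicates 1, 2 or 4 (adjusted p = 0.0567 to 0.0723), and Acaa2 fell (log2 fold change −0.40 ± 0.12, adjusted p = 0.0410), lost without 14-day replicates 1, 3 or 4 or 1-day replicates 2, 3 or 4 (adjusted p = 0.0511 to 0.119), of 23 tested. Of 11 erythroid markers Tfrc, the transferrin receptor that dividing lymphocytes also use, fell (log2 fold change −0.51 ± 0.16, adjusted p = 0.0454), lost without 14-day replicates 1, 2, 4 or 5 or 1-day replicates 1, 2, 3 or 4 (adjusted p = 0.0664 to 0.112). Acaa2 (adjusted p = 0.0649), Ppard (0.0721) and Tfrc (0.0617) also lost their calls after the length and GC correction, and Hist1h2bg in edgeR (0.0595). The 2 pancreatic acinar markers tested were not called.

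Over all tested rows the first principal component held 30.1% of the variance and the second 13.6%. On the second, the 1-day libraries lay at 14.5 to 32.9 and the 14-day libraries at −30.9 to −7.52, without overlap, the untreated libraries at −38.0 to −13.2 and the 3-day libraries at −17.4 to 21.6. No batch is given in the labels, so a batch that followed the groups and the time on NAM cannot be told apart.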
